A study of Mus musculus with 28 samples.

Results

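Genes of the cell cycle were examined in the livers of mice kept on a high fat diet with or without 2 plant polyphenols. The set held 37 genes, chosen by the gene name printed on the array: 5 act at entry into G1, 13 in origin licensing and DNA replication, and 19 in mitosis or its transcription. All 37 had a probe, 56 probes in total, and the brightest probe of a gene stood for it. Of the 37, 35 passed the filter on dim probes and were tested among 21854 genes. The other two, Ccnb1 and Aurkb, are accounted for below.

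Each of 28 male C57/6J mice gave 1 liver and 1 array. The mice were 7 weeks old at the start and 33 weeks old after 26 weeks on a diet. The HQ mice (n = 5) ate a high fat diet with 0.4% quercetin, a flavonol, the HR mice (n = 6) the same diet with 0.4% resveratrol, a stilbene, and the HQR mice (n = 6) the same diet with 0.2% of each. HFD mice (n = 6) received the high fat diet alone and SD mice (n = 5) a standard diet. The labels do not give the fat content of the diets. Values are log2 signal minus the 75th percentile of the same array, so a difference of 1 is a 2-fold difference in signal. In whole liver RNA, fewer cells of a type and less RNA per cell cannot be told apart.

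A resting hepatocyte sits outside the cycle and can re-enter it after injury or loss of tissue. Cyclin D1 and cyclin E open the G1 phase and release E2F1, and p21, encoded by Cdkn1a, inhibits the cyclin-dependent kinases. Cdc6 and Cdt1 load the MCM2 to MCM7 ring onto replication origins, and geminin (Gmnn) binds Cdt1 to prevent a second loading. Later genes, such as those of cyclin B, PLK1 and the Aurora kinases, are transcribed with FOXM1 and carry out mitosis.

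E2F sites are known from promoters of the earlier genes and the NF-Y box with the homology region from those of the later ones, so the promoters of 1 early and 3 late members are shown. RefSeq promoters (GRCm38.p6, from 250 bases before to 50 bases after the gene start) were matched for 29 of the 37 members, with 32 entries. Capitals mark CCAAT, the NF-Y box, TTTGAA, the cell cycle genes homology region, and the E2F-type runs TTTGGCGC and TTTCCCGC, each searched on both strands. No 2 of the marked runs overlap in these 4 promoters, which are given 5′ to 3′ in the direction of the gene.
Cdt1 (chr8:122567765-122568064, plus strand): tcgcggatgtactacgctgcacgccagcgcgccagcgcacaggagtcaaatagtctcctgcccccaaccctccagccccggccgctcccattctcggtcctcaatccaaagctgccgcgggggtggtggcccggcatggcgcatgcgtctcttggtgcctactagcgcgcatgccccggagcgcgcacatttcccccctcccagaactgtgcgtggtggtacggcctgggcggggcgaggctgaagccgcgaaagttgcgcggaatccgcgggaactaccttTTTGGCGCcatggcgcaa
Mki67 (chr7:135716330-135716629, minus strand): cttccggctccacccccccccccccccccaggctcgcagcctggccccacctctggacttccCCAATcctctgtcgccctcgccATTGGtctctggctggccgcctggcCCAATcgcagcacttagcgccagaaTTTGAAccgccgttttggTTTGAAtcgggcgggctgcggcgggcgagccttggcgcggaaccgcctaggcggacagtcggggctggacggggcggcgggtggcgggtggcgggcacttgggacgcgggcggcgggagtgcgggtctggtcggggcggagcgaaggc
Plk1 (chr7:122159185-122159484, plus strand): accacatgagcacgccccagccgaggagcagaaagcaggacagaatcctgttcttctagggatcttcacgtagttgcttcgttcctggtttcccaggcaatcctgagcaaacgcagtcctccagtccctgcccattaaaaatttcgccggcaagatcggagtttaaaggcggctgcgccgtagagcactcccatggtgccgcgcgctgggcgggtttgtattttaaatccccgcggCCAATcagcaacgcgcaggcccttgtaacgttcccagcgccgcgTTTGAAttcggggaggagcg
Cdc20 (chr4:118437294-118437593, minus strand): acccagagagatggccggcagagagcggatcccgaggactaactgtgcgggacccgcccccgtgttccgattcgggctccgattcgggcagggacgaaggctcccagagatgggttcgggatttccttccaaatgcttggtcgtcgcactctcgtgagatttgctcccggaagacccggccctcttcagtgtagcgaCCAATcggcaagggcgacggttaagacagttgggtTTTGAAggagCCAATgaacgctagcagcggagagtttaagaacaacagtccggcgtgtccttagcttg
The promoter of the licensing factor Cdt1 held a TTTGGCGC run and neither CCAAT nor TTTGAA, while Mki67, Plk1 and Cdc20 each held CCAAT together with TTTGAA. Among the mitotic members, 12 of 16 promoters (75%) held both CCAAT and TTTGAA, against 6.95% of all 32851 promoters in the table. Of the 12 replication promoters, 1 (8.33%), that of Mcm2, held both. Taken singly, CCAAT was common in both roles: it stood in 14 of 16 mitotic and 9 of 12 replication promoters, against 37.4% of all. TTTGAA stood in 12 of 16 and 1 of 12, against 17.9% of all. TTTGGCGC stood in 4 of the 12 replication promoters, those of Cdt1, Mcm3, Mcm5 and Mcm6, and in 0.514% of all promoters. TTTCCCGC stood in 3 of them, belonging to Cdc6, Mcm3 and Mcm7, and in 1.07% of all promoters. These matches describe letters only.

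The arrays themselves differed in signal. Between 59.3% and 82.1% of probes were well above background on an array, and the 75th percentile of the signal lay between 173 and 557. The median share was 65.6% in HQ, 70.3% in HR, 71.8% in HQR, 71.4% in HFD and 69.6% in SD livers. The arrays were spread over 9 slides and 4 scan days, and every slide that held more than 1 array held more than 1 diet. Of the hepatocyte markers, 7 of 7 measured were well above background on all 28 arrays. Among markers of the other cells a liver sample can hold, 8 of 8 Kupffer cell, 8 of 8 lymphocyte, 7 of 7 neutrophil and marrow, 5 of 5 erythroid, 6 of 6 sinusoidal endothelium, 6 of 6 cholangiocyte, 6 of 6 stellate cell and 4 of 4 fetal hepatocyte genes with a probe passed the filter, and none passed the test in any of the 8 comparisons. In HR livers against HFD, 8 of 8 Kupffer cell genes had a difference above 0 (median 0.55) and 6 of 6 endothelial genes (median 0.54). In HQ against HFD the counts were 7 of 8 (0.32) and 6 of 6 (0.36), and in HQR 7 of 8 (0.24) and 5 of 6 (0.20). Of all genes, 52.1%, 49.1% and 58.4% were above 0 in HR, HQ and HQR against HFD. In HFD against SD, 2 of 8 Kupffer cell genes (median -0.45) and 3 of 6 endothelial genes (-0.01) were above 0. The share of all genes there was 44.6%. The part of these markers in the values of the members was not tested.

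Cell cycle transcripts were detected in all 5 groups. A call of well above background was made on all 28 arrays for 24 of the 35 tested members, a share close to the 15273 of 21854 over all genes tested. Among these members were Ccnd1, Cdkn1a, Cdt1, Gmnn, Mcm3, Mcm4, Mcm6, Mcm7, Pcna, Mki67, Plk1 and Cdc20. Others were at the edge of detection: Top2a, the topoisomerase that untangles DNA before mitosis, was well above background on 18 arrays, Tpx2, a spindle assembly factor, on 16, Rrm2, the small subunit of ribonucleotide reductase, on 15, Ccne2 on 13, Cdc6 on 6 and the checkpoint kinase gene Bub1b on 5. Ccnb1, which encodes cyclin B1, was well above background on 1 array of the 28, a liver of the HQ group, by the brightest of its 3 probes. Of its dimmer probes, 1 was well above background on 2 arrays and the other on 0. By the brightest probe, its signal in that HQ liver was -3.01, against -6.31 to -4.91 in the other 4 HQ livers and -7.21 to -4.41 in the livers of the other diets. Aurkb, the kinase of the chromosomal passenger complex, was below this limit on every array.

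No member passed the test in any comparison. The tests were limma fits with Benjamini-Hochberg adjustment over all 21854 genes, and the threshold was an adjusted p of 0.05. The share of all genes that passed was 0.0% in HQ, 0.00915% in HR and 0.0% in HQR livers against HFD, and 0.114% in HFD livers against SD. It was 0.0366% in HQ, 0.0549% in HR and 0.0366% in HQR livers against SD, 0.0% in HQ against HR, and 0.101% in the test for any difference among the 5 diets. At an unadjusted p under 0.05, 7 of the 35 members (20%) differed in HFD livers against SD, beside 6.14% of all genes. That count moved with the processing and ran from 2 to 7 over the settings. It was 4 after quantile normalization, 2 after scaling to the array median and 3 after normexp background correction. Of the 21854 genes, 1381, 860 and 543 were past it in these settings. Without the arrays of slide 8 the count was 3, beside 1507 of all genes. In the other comparisons the members' counts were 1, 2 and 0 of 35 for HQ, HR and HQR against HFD, where 2.12%, 4.91% and 1.36% of all genes were past it. Against SD the counts were 2, 1 and 2 of 35 for HQ, HR and HQR, beside 3.91%, 5.71% and 6.43% of all genes. HQ against HR had 0 of 35, beside 1.29%, and the test among the 5 diets had 2 of 35, beside 3.96%. In none of the 8 comparisons did the livers of a member fall into groups without overlap. Of all genes, 0.165%, 0.389% and 0.0915% did so in HQ, HR and HQR against HFD, 1.33% in HFD against SD, 0.549%, 0.599% and 0.81% in HQ, HR and HQR against SD, and 0.11% in HQ against HR.

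**Figure D1:**
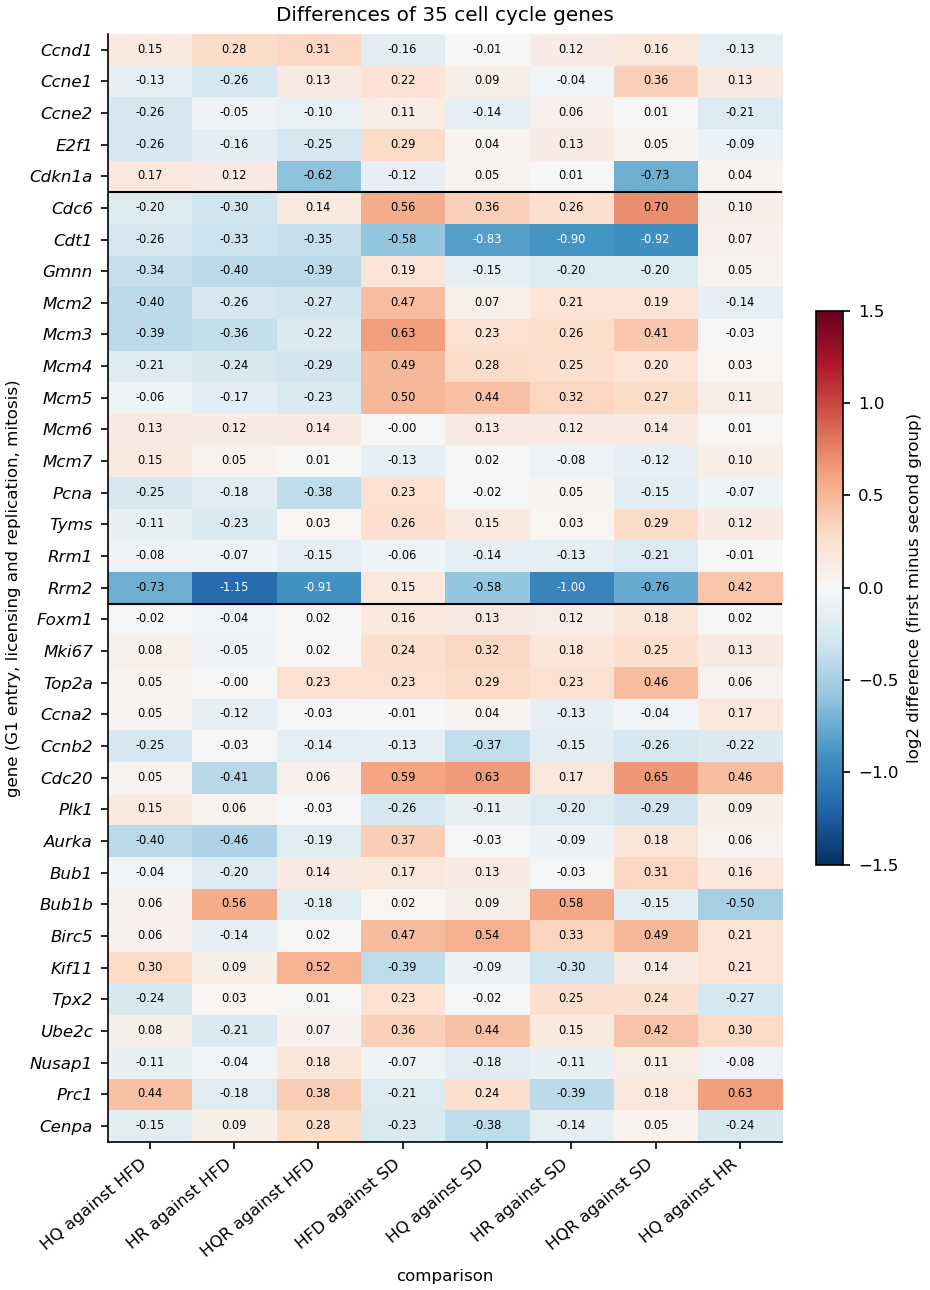
Log2 differences of the 35 tested members (rows, ordered by role and parted by black lines) in the 8 comparisons (columns), first group minus second, with the value printed in each cell. None passed an adjusted p of 0.05. The deepest blue cells belong to Rrm2, a dim gene, at -1.15 and -0.91 in HR and HQR livers against HFD and -1.0 in HR against SD, and to Cdt1, between -0.92 and -0.83 in HQ, HR and HQR livers against SD.

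The 95% confidence interval of the difference stayed within 2-fold in either direction for 30, 29 and 29 of the 35 members in HQ, HR and HQR against HFD, and for 25 in HFD against SD. Of all genes, 69.8%, 72.0% and 70.7% stayed within 2-fold against HFD and 64.8% in HFD against SD. The members' counts include Bub1b in HQ and HQR against HFD and in HFD against SD. No HQ, HQR or SD array was well above background for Bub1b, so these intervals bound no fold. The interval stayed within 1.5-fold for 10, 8 and 11 members in HQ, HR and HQR against HFD, and for 7 in HFD against SD, so differences of that size were not resolved for most members with 5 or 6 livers per group.

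At entry into G1 no member passed, and 4 of the 5 had small differences. Ccnd1, the gene of cyclin D1, read -1.57, -1.14, -0.88, -1.18 and -1.04 in HQ livers, -1.46, -1.04 and -0.58 (lowest, median and highest) in HR livers, -1.46, -0.97 and -0.64 in HQR livers, -1.59, -1.42 and -0.88 in HFD livers, and -1.42, -1.35, -1.06, -1.37 and -0.56 in SD livers. All groups overlapped. Its differences ranged from -0.16 in HFD against SD to 0.31 in HQR against HFD (SE 0.19, unadjusted p 0.112, adjusted p 0.987). Differences lay between -0.26 and 0.36 for Ccne1, between -0.26 and 0.11 for Ccne2 and between -0.26 and 0.29 for E2f1, and the smallest adjusted p of the 5 genes was 0.956.

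Cdkn1a, which encodes the kinase inhibitor p21, stood out by its spread between livers of the same diet. It read 0.16, -1.97, -1.83, -0.19 and 1.71 in HQ livers and -2.89, -0.52, 1.93, 1.09 and -1.99 in SD livers. The lowest, median and highest values were -1.74, -0.70 and 0.95 in HR, -2.15, -1.31 and -0.20 in HQR, and -1.78, -0.84 and 0.98 in HFD livers. All 5 groups overlapped, and livers of one diet lay far apart. The pooled standard deviation within diets was 1.34, larger than that of 98.8% of all genes tested, beside a median of 0.48 over all genes. With slide means also subtracted the standard deviation was 1.24, larger than that of 99.7% of genes. Group differences of Cdkn1a lay between -0.73 (HQR against SD, SE 0.77, adjusted p 0.995) and 0.17. All 28 arrays were well above background for its 1 probe (mm9 chr17:29237377-29237436).

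**Figure D2:**
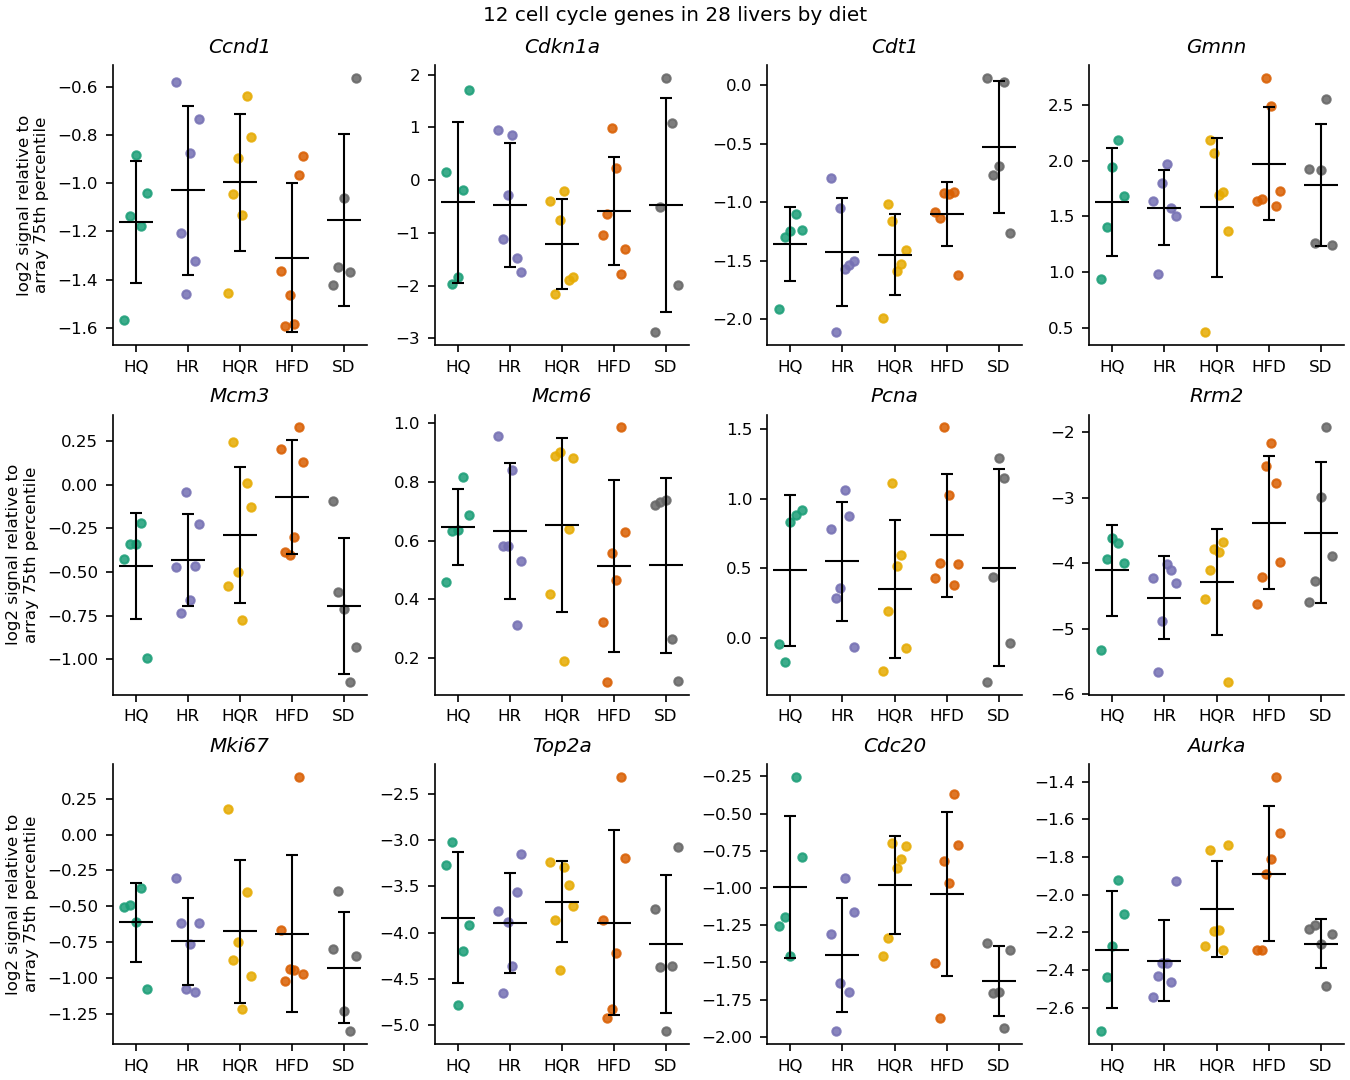
Log2 signal, less the 75th percentile of each array, for 12 members in each of the 28 livers, by diet, with the mean and standard deviation of the group as a black line and bar. Cdt1 is highest in SD livers with 1 SD liver at -1.26 among the other groups, Mcm3 has its highest mean in HFD livers, and Cdkn1a spans -2.89 to 1.93 within the SD group.

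Cdt1, the licensing factor that brings the MCM ring to origins, had the smallest p of the members in HQ, HR and HQR livers against SD, and the next smallest after Mcm3 in HFD livers against SD. It read -1.91, -1.29, -1.24, -1.10 and -1.23 in HQ livers, and 0.06, -0.77, -0.69, 0.03 and -1.26 in SD livers. Its lowest, median and highest values were -2.11, -1.52 and -0.79 in HR livers, -1.99, -1.46 and -1.02 in HQR livers, and -1.62, -1.0 and -0.91 in HFD livers. Of the 5 SD livers, 4 lay above every liver of the other diets, and the remaining SD liver, replicate 5, lay among them. Group means were -1.36 ± 0.32 in HQ, -1.43 ± 0.46 in HR, -1.45 ± 0.35 in HQR, -1.10 ± 0.27 in HFD and -0.52 ± 0.56 in SD livers (standard deviation, n = 5, 6, 6, 6 and 5).

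Against SD, the Cdt1 difference was -0.58 in HFD (SE 0.24, adjusted p 0.714), -0.83 in HQ (SE 0.26, adjusted p 0.695), -0.90 in HR (SE 0.24, adjusted p 0.286) and -0.92 in HQR livers (SE 0.24, adjusted p 0.208). The 4 comparisons share the SD arrays. Against HFD the differences were -0.26, -0.33 and -0.35 in HQ, HR and HQR livers, with adjusted p of 0.987 or above. The test among the 5 diets gave F = 4.81 (unadjusted p 0.00481, adjusted p 0.641). A contrast of the mean of the 4 high fat groups against SD, chosen after these values were seen, gave -0.81 (95% confidence interval -1.22 to -0.40, adjusted p 0.0964), with 0.142% of all genes past the threshold. At an unadjusted p under 0.05, 4 of the 35 members differed in that contrast, beside 7.18% of all genes.

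Slide changed the Cdt1 call. With slide as a random block, Cdt1 passed in HR livers against SD (-1.02, adjusted p 0.0371, with 0.224% of all genes past the threshold) and in HQR livers against SD (-0.95, adjusted p 0.0424, with 0.49% of all genes). With slide as a fixed block it did not pass in either (adjusted p 0.0684 in HR and 0.114 in HQR). Over the 24 alternatives of each, the adjusted p ran from 0.0371 to 0.999 in HR and from 0.0424 to 1.00 in HQR livers. In the contrast of the 4 high fat groups with SD it passed with slide as a block (-0.94, adjusted p 0.0285, 0.485% of genes), with slide as a random block (-0.88, adjusted p 0.0115, 0.924% of genes) and without SD replicate 5 (-0.99, adjusted p 0.0492, 0.11% of genes). Over all 40 alternatives of that contrast the adjusted p ran from 0.0115 to 0.704. An SD liver was present on 5 slides, and all 13 high fat livers on those slides were below the SD liver of their own slide, with mean differences per slide of -1.72 to -0.26. The same held for 0.842% of all genes and for no other member. This share covers only the direction in which Cdt1 had been seen to lie, and genes with every such liver above SD were not counted. On slides 1, 3, 6 and 9 the HFD liver differed from the SD liver by -1.14, -0.37, -0.95 and -0.36. The Cdt1 value rests on 1 probe (mm9 chr8:125096893-125096952).

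**Figure D3:**
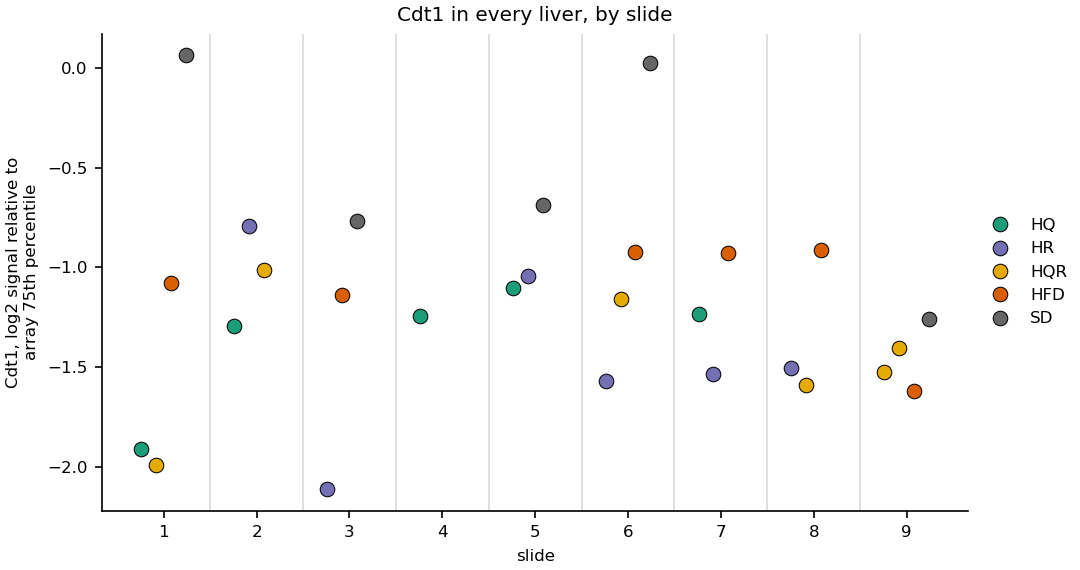
Scaled log2 signal of Cdt1 in each liver, by slide and coloured by diet. On each of the 5 slides with an SD liver (1, 3, 5, 6 and 9), that liver is the highest point, including SD replicate 5 on slide 9 at -1.26.

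Gmnn, the gene of the CDT1 inhibitor geminin, did not pass in any comparison either. It differed by -0.15, -0.20 and -0.20 in HQ, HR and HQR livers and by 0.19 in HFD livers against SD, with adjusted p of 0.958 or above. Across the 28 livers, with group means subtracted, Gmnn and Cdt1 correlated at r = 0.71 (0.63 with slide means also subtracted). This pair was picked from 595 pairs of members, whose median r was 0.14, and is given as a description.

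None of the MCM genes passed, and their differences lay on both sides of 0. In HFD livers against SD, the differences of Mcm2, Mcm3, Mcm4 and Mcm5 were 0.47, 0.63, 0.49 and 0.50, while those of Mcm6 and Mcm7 were -0.00 and -0.13. Mcm3 read -0.40, -0.08 and 0.33 (lowest, median and highest) in HFD livers, against -0.09, -0.61, -0.71, -1.13 and -0.93 in SD livers. Only the highest SD liver reached into the HFD range (difference 0.63, SE 0.21, 95% confidence interval 0.19 to 1.06, unadjusted p 0.00657, adjusted p 0.515). On all 4 slides that held both diets the HFD liver was higher in Mcm3, and likewise in E2f1, Mcm2, Pcna and Ube2c. It was lower on all 4 in Cdt1, Kif11, Nusap1, Plk1 and Top2a. In HQ, HR and HQR livers against HFD, Mcm3 differed by -0.39, -0.36 and -0.22, Mcm2 by -0.40, -0.26 and -0.27, Mcm4 by -0.21, -0.24 and -0.29, and Mcm5 by -0.06, -0.17 and -0.23, with adjusted p of 0.987 or above. These comparisons share the HFD arrays with HFD against SD. Mean levels with standard deviations were -0.46 ± 0.30 in HQ, -0.43 ± 0.26 in HR, -0.29 ± 0.39 in HQR, -0.07 ± 0.33 in HFD and -0.70 ± 0.39 in SD livers for Mcm3. For Mcm2 they were -2.99 ± 0.31 in HQ, -2.86 ± 0.41 in HR, -2.87 ± 0.39 in HQR, -2.60 ± 0.36 in HFD and -3.06 ± 0.15 in SD livers, and for Mcm5 -2.93 ± 0.21 in HQ, -3.04 ± 0.25 in HR, -3.10 ± 0.46 in HQR, -2.87 ± 0.36 in HFD and -3.37 ± 0.47 in SD livers.

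The second probes of Mcm3, Mcm4 and E2f1 had differences of the opposite sign. The dimmer Mcm3 probe (mm9 chr1:20795363-20795879) differed by -0.29 in HFD against SD, where the probe used (mm9 chr1:20793119-20793178) differed by 0.63, and within diets the 2 correlated at r = 0.29. For Mcm4 the values were -0.43 for the dimmer probe and 0.49 for the one used, with r = -0.25. In HR against HFD the dimmer probes differed by 0.04 for Mcm3 and 0.24 for Mcm4, where those used differed by -0.36 and -0.24. For E2f1 the dimmer probe differed by -0.03 in HFD against SD, where the one used differed by 0.29, with r = -0.25. With the mean of both probes in place of the brightest, the Mcm3 difference was 0.17 (adjusted p 0.975). Mcm2, Mcm5, Mcm6 and Mcm7 have 1 probe each. Of 8 pairs of probes within a member that both passed the filter, 3 correlated above 0.5 within diets, one each of Tyms, Mki67 and Kif11, and 3 below 0.

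Mcm6 read 0.46, 0.63, 0.64, 0.82 and 0.69 in HQ livers and 0.72, 0.73, 0.74, 0.26 and 0.12 in SD livers, with medians of 0.58 in HR, 0.76 in HQR and 0.51 in HFD livers. Its differences lay between -0.00 and 0.14 in the 8 comparisons. Pcna, the sliding clamp of DNA polymerases, read -0.04, -0.17, 0.83, 0.88 and 0.92 in HQ livers and -0.31, 0.43, 1.29, 1.15 and -0.03 in SD livers, with medians of 0.57 in HR, 0.36 in HQR and 0.53 in HFD livers. Its differences lay between -0.38 and 0.23. The smallest unadjusted p of the pair was 0.205.

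Rrm2, the regulated subunit of the enzyme that makes deoxynucleotides, read -5.66, -4.26 and -4.00 (lowest, median and highest) in HR livers, against -4.62, -3.38 and -2.16 in HFD livers. The difference was -1.15 (SE 0.47, unadjusted p 0.0220, adjusted p 0.944). The groups overlapped, and 2 of 6 HR and 5 of 6 HFD arrays were well above background. Rrm2 differed by -0.73 in HQ and -0.91 in HQR livers against HFD (adjusted p 1.00 and 0.987). After normexp background correction the HR difference was 0.04. Rrm1, the large subunit, lay between -0.21 and -0.01 in all 8 comparisons, and Tyms, thymidylate synthase, differed by 0.29 in HQR livers against SD (SE 0.15, adjusted p 0.815). Tyms averaged 1.18 ± 0.28 in HQ, 1.06 ± 0.21 in HR, 1.32 ± 0.17 in HQR, 1.28 ± 0.19 in HFD and 1.03 ± 0.20 in SD livers, and Rrm2 -4.11 ± 0.69 in HQ, -4.53 ± 0.63 in HR, -4.29 ± 0.81 in HQR, -3.38 ± 1.02 in HFD and -3.53 ± 1.08 in SD livers.

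Mki67, the gene of the Ki-67 antigen that marks cycling cells, read -0.51, -0.49, -0.61, -0.37 and -1.08 in HQ livers, and -0.80, -0.39, -1.23, -1.37 and -0.85 in SD livers. The lowest, median and highest values were -1.10, -0.69 and -0.30 in HR, -1.22, -0.81 and 0.18 in HQR, and -1.02, -0.94 and 0.40 in HFD livers. The group ranges overlapped throughout. Against HFD, Mki67 differed by 0.08 in HQ, -0.05 in HR and 0.02 in HQR livers, each with an SE of 0.24 to 0.26 and an adjusted p of 0.997 or above. Against SD it differed by 0.32 in HQ, 0.18 in HR, 0.25 in HQR and 0.24 in HFD livers, with adjusted p of 0.958 or above. The interval for HFD against SD, -0.29 to 0.76, covers both a lower level and one 1.5-fold higher. Top2a differed by -0.00 to 0.46 in the 8 comparisons (smallest unadjusted p 0.279), and its medians were -3.92 in HQ, -3.82 in HR, -3.60 in HQR, -4.04 in HFD and -4.36 in SD livers.

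Cdc20, the activator of the anaphase-promoting complex, read -1.26, -1.20, -1.46, -0.25 and -0.79 in HQ livers, -1.96, -1.47 and -0.93 (lowest, median and highest) in HR livers, -1.46, -0.83 and -0.70 in HQR livers and -1.87, -0.89 and -0.37 in HFD livers, against -1.37, -1.70, -1.70, -1.94 and -1.42 in SD livers. SD livers lay at the low end, and livers of each other diet reached into their range. The lowest liver of all was an HR liver, and the HR median lay inside the SD range. Against SD the difference was 0.63 in HQ (SE 0.26, adjusted p 1.00), 0.65 in HQR (SE 0.25, adjusted p 0.561), 0.59 in HFD (SE 0.25, adjusted p 0.718) and 0.17 in HR livers. Within slides, Cdc20 was above the SD liver on 2 of 2 shared slides in HQ (differences 0.11 and 1.44), on 2 of 3 in HR, on 2 of 3 in HQR and on 2 of 4 in HFD livers.

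Aurka, the Aurora A kinase of the spindle poles, had the smallest p of the members in HQ and in HR livers against HFD. It read -2.54, -2.40 and -1.93 (lowest, median and highest) in HR livers and -2.73, -2.44, -2.27, -1.92 and -2.10 in HQ livers, against -2.30, -1.85 and -1.37 in HFD livers. All 3 groups overlapped. The difference was -0.46 in HR (SE 0.17, unadjusted p 0.0111, adjusted p 0.909), -0.40 in HQ (SE 0.18, unadjusted p 0.0310, adjusted p 1.00) and -0.19 in HQR livers. Aurka averaged -2.29 ± 0.31 in HQ, -2.35 ± 0.22 in HR, -2.07 ± 0.26 in HQR, -1.89 ± 0.36 in HFD and -2.26 ± 0.13 in SD livers. After normexp background correction the HR difference was -0.02 and the HQ difference 0.16, where the medians over all genes were 0.16 and 0.24. When a liver was left out, the HR difference lay between -0.54 and -0.36. Bub1b differed by 0.56 in HR against HFD (adjusted p 1.00), but no HQ, HQR or SD array and 3 of 6 HR and 2 of 6 HFD arrays were well above background, so the fitted difference is no measured fold. Its group means were -4.84 ± 0.67 in HQ, -4.35 ± 0.26 in HR, -5.09 ± 0.57 in HQR, -4.91 ± 0.68 in HFD and -4.93 ± 0.44 in SD livers. The same limit holds for Cdc6 in HQ and SD livers.

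Quercetin and resveratrol were compared at the same dose of 0.4% and the same time, as 1 pair of compounds. The smallest p in HQ against HR livers were those of Cdc20, 0.46 (95% confidence interval -0.06 to 0.98), Bub1b, -0.50 (-1.15 to 0.16), and Ube2c, which encodes the ubiquitin-conjugating enzyme of the anaphase-promoting complex, 0.30 (-0.18 to 0.77). The Bub1b value is no measured fold, since 0 of 5 HQ and 3 of 6 HR arrays were well above background. All adjusted p were 1.00, in a comparison in which no gene passed and 282 of 21854 had an unadjusted p under 0.05. Ube2c read -2.56, -2.57, -2.82, -2.05 and -2.09 in HQ livers, within the HR range of -3.31 to -2.22 apart from the 2 highest. For 29 of the 35 members the interval stayed within 2-fold, and for 14 within 1.5-fold. Of all genes, 72.6% stayed within 2-fold. The mixture in HQR held 0.2% of each compound, so its values stand beside the others without a comparison.

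Taking the members by role, the median difference of the 13 licensing and replication genes was -0.21 in HQ, -0.24 in HR and -0.23 in HQR livers against HFD, with 11, 11 and 9 of 13 below 0, and 0.23 in HFD against SD. That of the 17 mitotic genes was 0.05, -0.04 and 0.02 against HFD, and 0.16 in HFD against SD. Medians over all genes were -0.00, 0.01 and 0.05 against HFD and -0.04 in HFD against SD. Of all genes, 49.1%, 52.1% and 58.4% had a difference above 0 in HQ, HR and HQR against HFD. The signs moved with the processing. Over all 35 members, 14, 9 and 18 were above 0 in these comparisons, and 26, 22 and 21 after normexp background correction. The medians over all genes were then 0.24, 0.16 and 0.09. With slide as a block, 18, 10 and 11 of the 35 were above 0. In HFD against SD, 22 of the 35 were above 0, 20 with slide as a block and 14 after normexp, where the median over all genes was -0.14. The comparisons of HQ, HR and HQR with HFD share its arrays, and no set was tested.

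Other genes of the same pathways gave no call either. Of 18 further G1 regulators measured (20 listed), 31 replication genes (32 listed), 53 mitotic genes (62 listed) and 13 p53 targets (14 listed), none passed in any of the 8 comparisons. In HFD against SD, 11, 16, 25 and 9 of them had a difference above 0, with medians of 0.10, 0.01, -0.01 and 0.11. Over all genes 44.6% were above 0, with a median of -0.04. In HR against HFD the medians were -0.00, -0.02, -0.02 and 0.01.

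Subtracting slide means removed a large share of the variance within diets for some members. The share is not adjusted for the fall from 23 to 15 degrees of freedom, so it lies above 0 even where slides do not differ. The share was 0.83 for Kif11, the motor that separates the spindle poles, 0.76 for Prc1, a bundler of midzone microtubules, 0.81 for Top2a and 0.77 for Pcna. Its median was 0.52 over the 35 members, beside 0.58 over all genes. On slide 1, Prc1 read -0.67, 0.85, -0.66 and 0.36 in the HQ, HQR, HFD and SD liver, against -3.16 to -0.55 with a median of -2.16 on the 24 arrays of the other slides. Kif11 read -0.98, -0.15, -1.66 and -1.32 there, against a median of -3.16 on the others. All 4 diets present on slide 1 were high in Prc1 together.

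**Figure D4:**
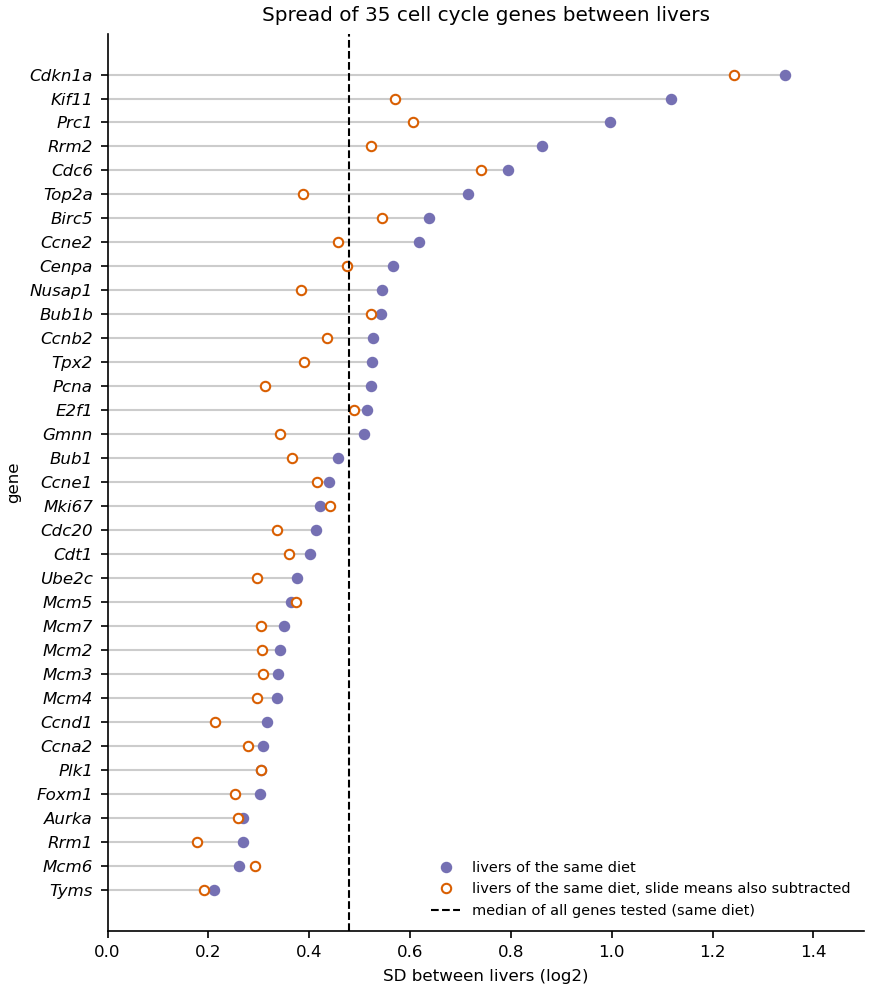
Standard deviation between livers of the same diet for each of the 35 members (filled), and the same after slide means were also subtracted (open), on the log2 scale, with the median over all genes tested as a dashed line at 0.48. Cdkn1a stays above 1.2 by both measures, whereas Kif11 and Prc1 move to 0.57 and 0.61.

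Members that track the proliferation marker from liver to liver were sought as correlations with Mki67 over the 28 livers, group means subtracted. Of 34 members, 6 passed a two-sided permutation test with Benjamini-Hochberg adjustment over the 34. The permutations shuffled the 28 deviations as if independent, while 23 degrees of freedom remained, so the p-values are too small. Calls near the threshold, such as those of Cdc6, Kif11 and Gmnn, may not hold. Plk1, the Polo-like kinase, had r = 0.76 (rho 0.65, adjusted p 0.00068), Foxm1 had r = 0.63 (rho 0.67, adjusted p 0.00578), and Prc1 had r = 0.62 (rho 0.64, adjusted p 0.0101). Cdc6 at 0.53, Kif11 at 0.51 and Gmnn at -0.50 also passed, with adjusted p of 0.0260, 0.0379 and 0.0384. Their rho was 0.52, 0.36 and -0.37, and by rho Kif11 and Gmnn did not pass (adjusted p 0.208 and 0.206). At or past an absolute r of 0.50 lay 12.6% of all genes, beside 17.6% of the members. With Top2a in place of Mki67, 8 of 34 members (23.5%) passed, beside 45.0% of all genes at or past the smallest passing r. With slide means also subtracted, 8 passed for Top2a (23.5%), beside 33.2% of all genes. The median r with Top2a was then 0.07 over the members and 0.15 over all genes.

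Leaving out the 2 livers farthest from the median of Mki67, r was 0.57 for Plk1, 0.66 for Foxm1, 0.51 for Prc1, 0.38 for Cdc6, 0.29 for Kif11 and -0.32 for Gmnn. With slide means subtracted as well, 11 members passed, 10 of them with a positive r, and 8.81% of all genes were at or past the smallest passing r of 0.47. Only 15 degrees of freedom remained in that setting, so its p-values are too small by more, and calls below the largest r may not hold. Plk1 then had r = 0.77, and Ccna2 (0.60), Foxm1 (0.59), Cdc20 (0.53), Prc1 (0.53), Tpx2 (0.53), Top2a (0.53), Nusap1 (0.52), Mcm6 (0.51) and Ube2c (0.49) were the other positive ones, while Bub1 had -0.47. The Bub1 probe used averaged 0.21. Its other probe averaged -5.24, was well above background on 3 arrays and did not pass the filter, so the Bub1 value rests on 1 probe. The count moved with the scaling: 2 members passed after quantile normalization or scaling to the array median, 1 in the deposited value table and 23 after normexp. Of all genes, 2.60%, 0.475%, 0.0686% and 59.4% were at or past the smallest passing r in these 4 settings. Without SD replicate 4 or without HFD replicate 5 the count was 3.

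**Figure D5:**
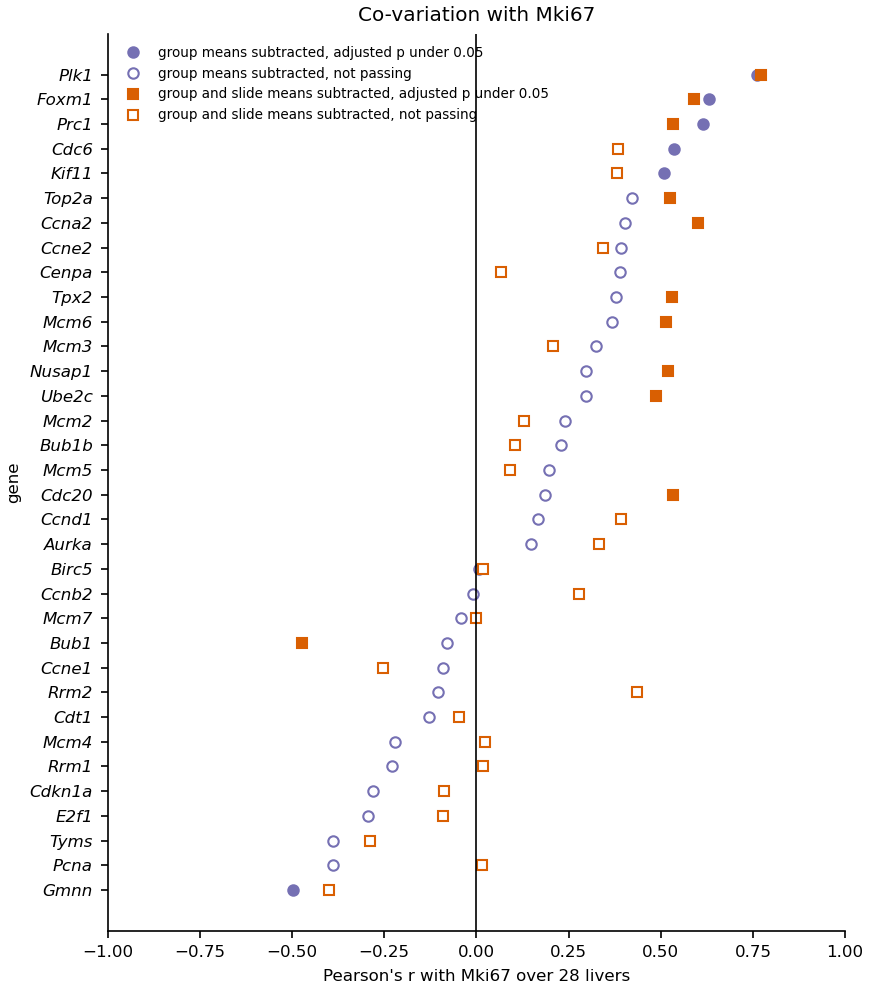
Pearson's r of each of 34 members with Mki67 over 28 livers, with group means subtracted (circles) and with group and slide means subtracted (squares). Filled points passed an adjusted p of 0.05 by permutation, which took the 28 deviations as independent and so gives p-values that are too small. Plk1 is the rightmost point by both measures (0.76 and 0.77).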

How the data were processed

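Liver RNA of 28 mice was measured on Agilent whole mouse genome arrays with 1 colour. Per the file headers, Feature Extraction 10.5.1.1 produced each deposited spot intensity, background-subtracted and detrended within the array, with probe coordinates on mm9. The deposited value table holds a score per probe, centred and scaled within each array by the authors; its log base is unknown, and it served as an alternative only.

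Control spots were left out, spots of a probe were averaged, and log2 intensity minus the 75th percentile of the array was used. Probes well above background on at least 5 arrays were kept (32078 of 41174), and the brightest kept probe stood for a gene. All 5 diets entered 1 limma fit (limma 3.58.1, R 4.3.3) with Benjamini-Hochberg adjustment over 21854 genes. Correlations used 100000 permutations (scipy 1.17.1), and 20000 where a liver was left out. The scripts were tested on simulated data, in which 36 to 52 of 100 genes changed 2-fold were called, depending on the comparison. Of 100 genes changed 4-fold, 75 to 96 were called, with 0 to 6 false calls. Many 2-fold changes would thus be missed. The number of arrays limits the precision.

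Genes other than members were renamed through RefSeq where a probe's accession or symbol matched. The members and lists were chosen with earlier results of these data known. Values are given for the 3 members with the smallest p in each comparison and for Mki67, Top2a, Ccnd1, Pcna, Cdkn1a, Ccnb1 and Mcm6. Same-numbered livers deviated together in 5 of 5 pairs only for HFD against SD (r 0.217 to 0.698), a pairing seen in the values and not given by the labels. Alternatives covered background correction, normalization, the dim filter, the probe of a gene, slide, scan day, the replicate block, the arrays in the fit, the deposited table and leaving out each liver.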

Additional observations from a re-analysis of the deposited data

Results flagged for a closer look

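In 14 of 175 groups of livers of 1 member and 1 diet, the highest or lowest liver stood apart from the rest by Dixon's criterion, where chance gives about 1 in 20 groups, or 8.75. Low livers were Cdt1 in HQ replicate 1 (-1.91, nearest liver -1.29), Rrm2 in the same liver (-5.32, nearest -3.99), Mcm3 in HQ replicate 5 (-0.99, nearest -0.43), Foxm1 in HR replicate 5 (-3.11, nearest -2.44), Rrm1 in HQR replicate 1 (-1.68, nearest -1.12) and Cdt1 in HFD replicate 6 (-1.62, nearest -1.14).

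High livers were Aurka (-1.93, nearest -2.36) and Tpx2 (-3.33, nearest -4.01) in HR replicate 6, and Kif11 (-0.15, nearest -2.56) and Prc1 (0.85, nearest -1.81) in HQR replicate 1. Birc5, which encodes survivin, was high in HQR replicate 2 (2.00, nearest 0.40). Mki67 (0.40, nearest -0.67) and Plk1 (-1.14, nearest -2.15) were both high in HFD replicate 5, and Nusap1 was high in SD replicate 5 (-2.46, nearest -3.46). Slide 1 held 5 of the 14 and slide 8 held 4; the part of slide in these values was not tested.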

How the results depend on the processing

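With slide as a random block, 1 member (Cdt1) passed in HR against SD, in HQR against SD and in the high fat groups against SD; in the last contrast 1 also passed with slide as a block, and 0 to 1 when a liver was left out. In all other settings and comparisons run, 0 of the measured members passed. The replicate block changed no call: 0 members passed in each comparison, and the adjusted p of Cdt1 in the high fat groups against SD was 0.137. Of 6 members correlated with Mki67, the count was 2 after quantile normalization, 2 after scaling to the array median, 23 after normexp, 1 in the deposited table, 11 with slide means subtracted, and 3 to 8 when a liver was left out. With Top2a in place of Mki67 the count was 8. The p-values behind these counts are too small, since the shuffled deviations were taken as independent. After normexp, Aurka in HQ against HFD was 0.16 and Rrm2 in HR against HFD 0.038, while the median of all genes was then 0.24 and 0.16; the cause was not tested. Dim signal limits Cdc6, Bub1b, Ccne2, Rrm2 and Tpx2.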

Other observations

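The following genes were named after their values were seen. Trp53inp1, a target of p53, averaged 2.14 ± 0.40 in HQ, 2.04 ± 0.34 in HR, 2.09 ± 0.26 in HQR, 3.35 ± 0.83 in HFD and 2.90 ± 0.99 in SD livers (standard deviation, n = 5, 6, 6, 6 and 5). It differed from HFD by -1.20, -1.31 and -1.25 in HQ, HR and HQR livers, which share the HFD arrays, and did not pass in limma (Benjamini-Hochberg adjusted p 1.00, 0.556 and 0.987). Ncapg, a condensin subunit gene, differed by 0.93 in the high fat groups against SD (adjusted p 0.280).

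Over the 28 livers with group means subtracted, Cdkn1a correlated with Pcna at 0.68, with Cenpa, the centromeric histone, at -0.75 and with Mcm3 at -0.64, and 4.45% of all genes reached the smallest of these in size. With slide means also subtracted the values were 0.63, -0.91 and -0.70. Birc5, at -0.62, also passed the permutation test, whose p-values are too small with 15 degrees of freedom. Of all genes, 8.81% then reached the smallest of these values in size. With group means alone subtracted, Cst3, Ddit4 and Plin5 were the genes most like Cdkn1a (r = 0.86, 0.85 and 0.84). Of the 10 most alike by that measure, 1700073E17Rik (0.91) and Psmd4 (0.90) were above Cst3 (0.88) once slide means were subtracted too. Ddit4 responds to stress and Plin5 coats lipid droplets. Racgap1, a cytokinesis regulator, had a standard deviation within diets of 2.15, and the share of its variance between slides, not adjusted for degrees of freedom, was 0.91.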
